A study of Mus musculus with 12 samples.

Results

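Of the 4762 RNA clusters listed for a PAR-CLIP experiment on the chromatin protein Smchd1, 692 (14.53%) carry a sequence that is listed, letter for letter, at 10 or more places in the mouse genome. They were found by counting how often each exact cluster sequence occurs, and they hold 36 distinct sequences of the 3560 in the list (1.01%). Each sequence is named here by its rank in number of loci, from R1 at 76 loci to R36 at 10. Just inside the threshold stand 4 sequences at 10 loci, and just outside it 6 sequences at 9.

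In PAR-CLIP, living cells build 4-thiouridine into their RNA, long-wave ultraviolet light joins that RNA to the proteins it touches, and RNA recovered with 1 protein is sequenced. The cells were neural stem cell lines of female C57BL/6 mice, derived from E14.5 embryos. A first group of 4 libraries was Smchd1GFP/GFP, with a GFP tag on both Smchd1 alleles, and was crosslinked at 365 nm after 100 µM 4-thiouridine for 24 hours with 0.15 J/cm2. A second group of 4 had the same genotype and the title No Crosslink, although its treatment protocol names the same irradiation, and the last group of 4 was Smchd1+/+, untagged and crosslinked. All 3 groups share the strain, the sex and the 4-thiouridine. The list has 1 read count per cluster and 0 columns per library, so no value below has a replicate error, and the tagged cells cannot be set against the untagged or uncrosslinked controls.

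Smchd1 is a member of the SMC family of chromosome proteins and takes part in silencing the inactive X chromosome, imprinted genes and gene clusters. A large share of the mouse genome consists of repeats. Interspersed repeats such as LINE-1 elements copied themselves through RNA and lie scattered over all chromosomes, while segmental and tandem duplications keep related copies side by side on 1 chromosome. A short read from a young repeat can match many copies equally well, and then it cannot be assigned to the copy it came from.

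Because the same letters recur at each locus, the sequences themselves are the members here, and those on which the results turn are shown first. They are printed 5′ to 3′ on the strand of the cluster as the list gives them, with the first 2 bases in capitals. Any other capital marks a base that differs between the sequences compared. Positions are counted from 1 at the 5′ end. Each is given with its locus of highest read count on mm10, and the other members are described by their values only. The first set belongs to members that are tied together by words of 30 bases in annotated transcripts, described below.

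R2, chr12:9677874-9677958, plus strand: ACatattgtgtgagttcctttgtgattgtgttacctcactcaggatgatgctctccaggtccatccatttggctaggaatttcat
R3, chr2:100643063-100643145, plus strand: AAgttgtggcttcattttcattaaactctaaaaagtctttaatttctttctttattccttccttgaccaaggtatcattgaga
R4, chrY:26044756-26044840, plus strand: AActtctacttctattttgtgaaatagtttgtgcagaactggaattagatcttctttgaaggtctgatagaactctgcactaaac
R7, chrY:11146688-11146771, plus strand: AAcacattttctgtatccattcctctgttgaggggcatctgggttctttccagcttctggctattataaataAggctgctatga
R15, chrY:35327778-35327861, minus strand: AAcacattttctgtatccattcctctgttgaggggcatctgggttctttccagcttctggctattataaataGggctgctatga
R10, chr13:105535905-105535990, minus strand: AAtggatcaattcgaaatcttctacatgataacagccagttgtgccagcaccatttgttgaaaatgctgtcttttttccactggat
R11, chr4:16841271-16841355, minus strand: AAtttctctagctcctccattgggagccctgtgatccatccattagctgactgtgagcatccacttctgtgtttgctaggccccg
R21, chr13:87079112-87079195, plus strand: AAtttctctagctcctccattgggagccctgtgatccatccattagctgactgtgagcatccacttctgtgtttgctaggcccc
R34, chrX:54346126-54346211, plus strand: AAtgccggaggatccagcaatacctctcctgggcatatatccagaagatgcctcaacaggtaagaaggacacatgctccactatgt
R36, chr12:82635289-82635374, plus strand, in an intron of Rgs6: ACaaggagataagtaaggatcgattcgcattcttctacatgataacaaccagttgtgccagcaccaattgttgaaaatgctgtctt

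R7 and R15 differ by the substitution A73G. R21 is R11 without its last base.

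The second set lies outside those ties. R8 recurs in a further group of transcripts, and R12 and R17 were neighbours in the genome. R6, R19 and R25 are each listed on 1 chromosome, with its scaffolds counted in.

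R8, chr10:4194720-4194805, plus strand: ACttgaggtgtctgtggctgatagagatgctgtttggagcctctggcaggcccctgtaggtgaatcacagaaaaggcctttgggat
R12, chr15:76562738-76562822, plus strand: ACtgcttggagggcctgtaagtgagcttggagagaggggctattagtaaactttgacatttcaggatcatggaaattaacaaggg
R17, chr10:8547727-8547812, plus strand: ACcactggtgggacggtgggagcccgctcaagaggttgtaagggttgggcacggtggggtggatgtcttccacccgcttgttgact
R6, chr4:42234898-42234983, plus strand, in a non-coding exon of Gm13301: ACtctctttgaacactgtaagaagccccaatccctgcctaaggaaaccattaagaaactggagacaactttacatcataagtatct
R19, chr7:59552608-59552691, minus strand, in an intron of Snhg14: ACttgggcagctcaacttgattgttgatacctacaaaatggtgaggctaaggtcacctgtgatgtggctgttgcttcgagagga
R25, chrX:54214306-54214388, plus strand: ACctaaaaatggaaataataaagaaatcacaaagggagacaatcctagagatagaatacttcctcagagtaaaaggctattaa

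Reads of the repeat clusters came mostly from a few sequences. The 692 clusters sum to 180507 reads, 32.6% of the 553902 reads of the list. Counted once per sequence, at its locus with the most reads, the same members give 12138 reads, since a sequence listed at n loci enters the sum n times. R7 gives 30.99% of the members' reads, R26 19.2% and R23 15.6%, and the highest 3 together 65.8%. These sums count each locus; by reads per locus R26 (median 3156) stood above R7 (2410) and R23 (2347.5), and R7 has 25 loci against 11 and 12. With R20 and R13 the highest 5 reach 84.5%. A repeat cluster had from 5 to 3163 reads with a median of 17, and the median over all other clusters was 14.

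**Figure D1:**
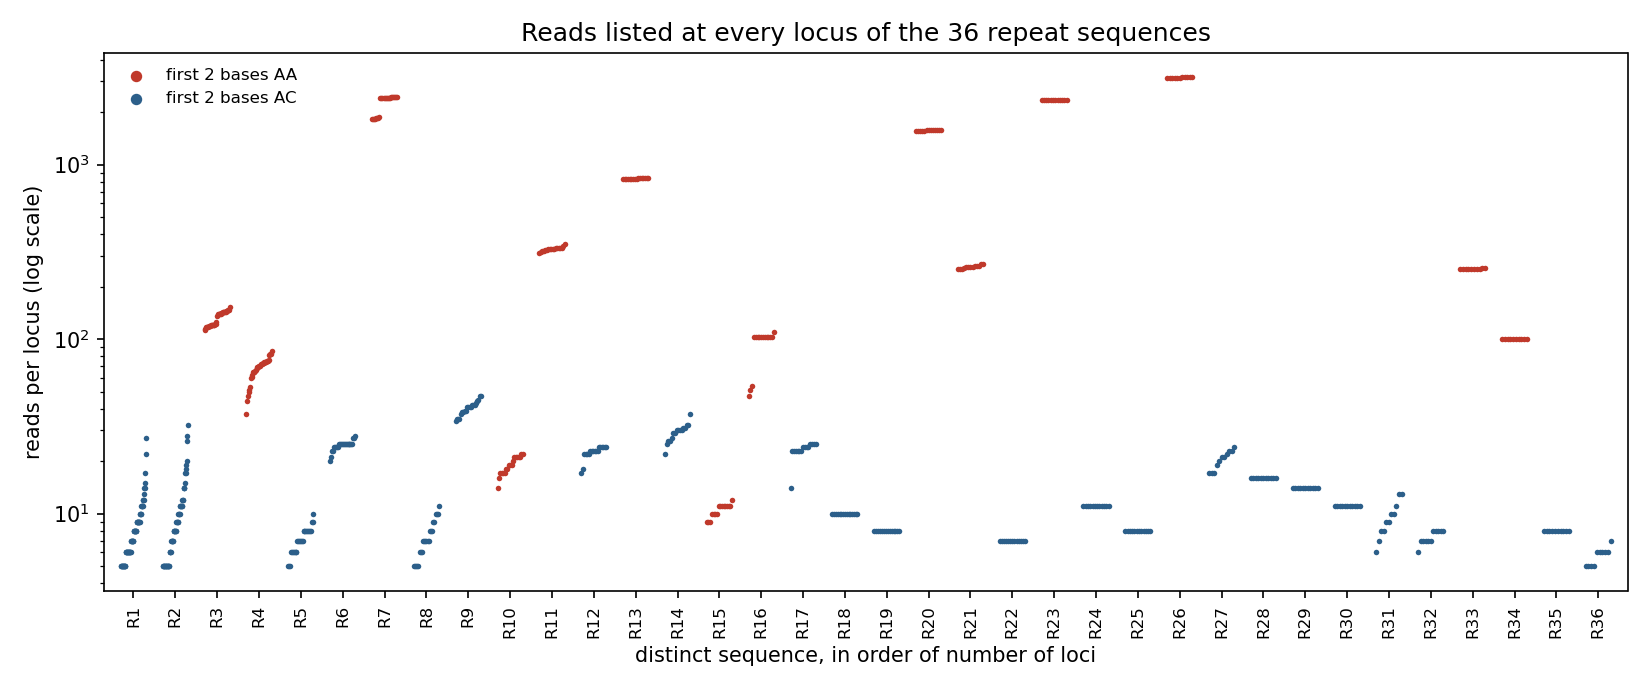
Reads at each of the 692 loci (points, log scale), by distinct sequence in order of number of loci, coloured by the first 2 bases. Within a sequence the loci form nearly flat rows, while the rows themselves span 5 to 3163 reads, and the highest rows are red.

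Copies of 1 sequence carried nearly the same number of reads. At 10 of the 36 sequences every locus had 1 read count: R18 has 10 reads at each of 15 loci, R19 has 8 at 14, R22 has 7 at 13, R24 has 11 at 12 and R25 has 8 at 12. R28 has 16 reads at 11 loci, R29 has 14 at 11, R30 has 11 at 11, R34 has 100 at 10 and R35 has 8 at 10. In 16 sequences the highest locus exceeded the lowest by at most 1.1 times, in 26 by at most 1.5 times, and in 6 by more than 2 times. R2 spanned most, from 5 to 32 reads with a median of 8, a ratio of 6.4. R1 ranged from 5 to 27 reads with a median of 7.5. Among the 226 sequences at 2 to 9 loci, 145 had 1 read count at all of their loci. Loci of a sequence therefore do not count as independent observations, and the test below is made over distinct sequences.

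In some of the sequences whose copies differed, the strand of the locus went with the difference. R7 had 2403 to 2450 reads (median 2422) at its 17 plus-strand loci and 1822 to 1869 (median 1841) at its 8 minus-strand loci. The groups do not overlap, on the autosomes or on the Y chromosome. R3 had 136 to 153 reads at 19 plus-strand loci and 113 to 125 at 18 minus-strand loci. R4 had 60 to 86 reads at 30 plus-strand loci and 37 to 53 at 6 minus-strand loci, again without overlap. R26 went the other way, with 3132 to 3141 reads at 4 plus-strand loci against 3150 to 3163 at 7 minus-strand loci. Of 28 sequences with loci on both strands 7 have 1 read count throughout. Of the other 21, the strands do not overlap in 7, and the median was higher on the plus strand in 15, on the minus strand in 5 and equal in 1. Among the 7 are R17, with 1 minus-strand locus, and R36, with 6 to 7 reads against 5. The strands overlap in R1 and R2, which spanned most. This comparison was added after the values were seen.

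The pair R11 and R21 is split by strand in the list's own boundaries, here with more reads on the minus strand. They share 84 bases, and all 18 loci of the 85-base R11 lie on the minus strand (313 to 350 reads, median 329.5) while all 13 loci of the 84-base R21 lie on the plus strand (251 to 270 reads, median 260). In total 8 sequences lie on 1 strand only, among them R31 with 11 plus-strand loci. The reverse complement of a member was listed for 0 of the 36.

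Each of the 36 sequences began with AC or AA. AC opened 22 of them (61.1%, exact binomial 95% interval 43.5 to 76.9), against 2989 of the 3524 other distinct sequences (84.8%, 83.6 to 86.0), an odds ratio of 0.281 (two-sided Fisher's exact test, p = 0.000514). The test counts each sequence once, takes the sequences as independent and covers counting error only. Many of them are variants of each other, such as R7 and R15 or R11 and R21. The p-value is therefore not that of independent observations. AA opened the other 14 of the 36 members (38.9%). At 2 to 9 loci AA was the start of 76 of the 226 sequences (33.6%), but at 1 locus of 185 of 3298 (5.61%). Over the 9 sequences at 20 or more loci the odds ratio was 0.363 with p = 0.15 by the same exact test.

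All 14 AA sequences belong to the set of 17 that is tied together by shared transcripts (below), where R1, R2 and R36 are the 3 that begin with AC. The 19 sequences outside it all begin with AC, so without that set the direction turns: 19 of 19 against 2989 of 3524, an odds ratio of 6.99 with 0.5 added to each cell (Fisher's exact test, p = 0.0989). The set and the AA start cannot be told apart as what sets the members off from the rest of the list.

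The AA sequences held nearly all of the reads. Their 251 clusters are 36.3% of the members and hold 174560 reads, 96.7% of the total, while the 441 AC clusters hold 5947. By sequence, the median read count was 257 in the 14 AA sequences (quartiles 101 to 1388, range 11 to 3156) and 9.5 in the 22 AC sequences (quartiles 7.63 to 19.75, range 6 to 41), a ratio of 27.1. Of the AA sequences 12 lie above the highest AC sequence, which is R9 at 41. R10 at 19 and R15 at 11 do not. Elsewhere in the list the gap was smaller: 88.5 against 16 reads at 2 to 9 loci, and 30 against 13 at 1 locus. No test was made, since many of these sequences are variants of each other.

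**Figure D2:**
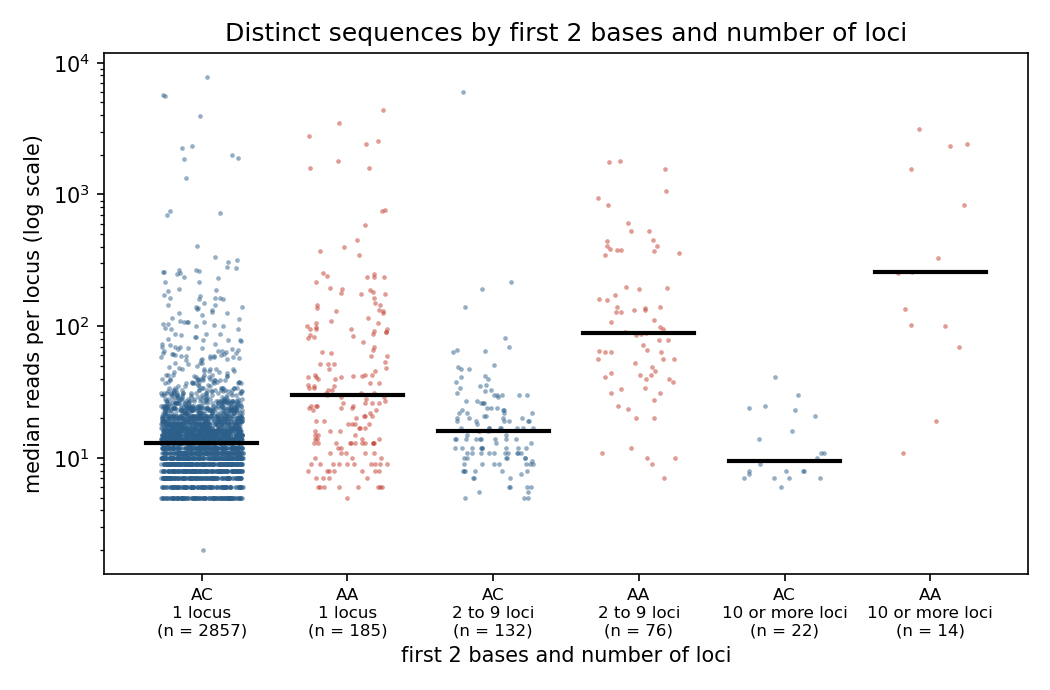
Median reads per locus (log scale) of every distinct sequence that begins with AC or AA, in 3 classes by number of loci; each point is a sequence and the black line is the median of its column. Among sequences at 10 or more loci the medians are 9.5 for AC and 257 for AA, and among sequences at 1 locus 13 and 30.

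The same gap appeared between many near-identical sequences with A or C at base 2. None of these pairs differs at base 2 alone. The following are listed counterparts of R7, R36 and R2, shown because base 2 is a change they share; R2b is not the closest relative of R2.

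R7b, chr10:104584635-104584718, plus strand: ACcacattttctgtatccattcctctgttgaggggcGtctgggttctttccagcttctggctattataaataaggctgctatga
R36b, chr3:12110808-12110893, minus strand: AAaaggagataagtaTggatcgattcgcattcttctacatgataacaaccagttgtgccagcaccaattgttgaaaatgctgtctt
R2b, chr7:62522263-62522347, minus strand: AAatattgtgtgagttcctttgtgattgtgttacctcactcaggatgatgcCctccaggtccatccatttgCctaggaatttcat

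From R7 to R7b the substitutions are A2C and A37G, and R7 has 2410 reads at 25 loci while R7b has 11 reads at 4. From R36 to R36b they are C2A and A16T, and R36 has 6 reads at 10 loci while R36b has 943 at 2. R2b differs from R2 by C2A, T52C and G72C and has 95 reads at 1 locus, against 8 at 64 loci. In each of these 3 pairs the sequence with A at base 2 has more reads, and in all but the R7 pair it has fewer loci.

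A counterpart with A for C or C for A at position 2 and at most 5 substitutions was listed for 13 members, and against the closest A had the higher median in 11. Summed over the members there were 74 such pairs, with A higher in 64, lower in 9 and equal in 1, and 8 of the 9 came from R15 and 1 from R34. A pair in which both are members counts from each side, and related members share many counterparts, so the 74 are not distinct. The members R1 and R26 are such a pair, separated by C2A and A63G: R1, with C, has a median of 7.5 reads at 76 loci, and R26, with A, has 3156 at 11. R2, with C, and R20, with A, have 8 reads at 64 loci and 1574 at 13. R23 has 2347.5 reads against 23 and 217 in the 2 counterparts with C at 2 substitutions, R11 329.5 against 7, R21 260 against 7 and R16 103 against 10. The exceptions are R15, equal to its counterpart at 11 reads, and R34, with 100 reads against 217. R7, R11, R20, R23 and R26 had more reads than every near-identical sequence, also those with A at base 2. For R7, near-identical sequences with A ranged from 6 to 2400 reads, and those with C from 5 to 25. In these members a higher count is thus not particular to pairs that differ at base 2. Whether base 2 matters apart from the other differences was not tested. Differences at base 2 alone were listed for 2 members, both with T: R2 has 8 reads against 276 with T (C2T) and R18 has 10 against 7. Over the whole list 43 AC sequences have an AA counterpart within 3 substitutions, and A was higher in 42 and lower in 1. In the 25 of these pairs that hold no member, A was higher in 24, with medians of 146 and 13 reads.

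**Figure D3:**
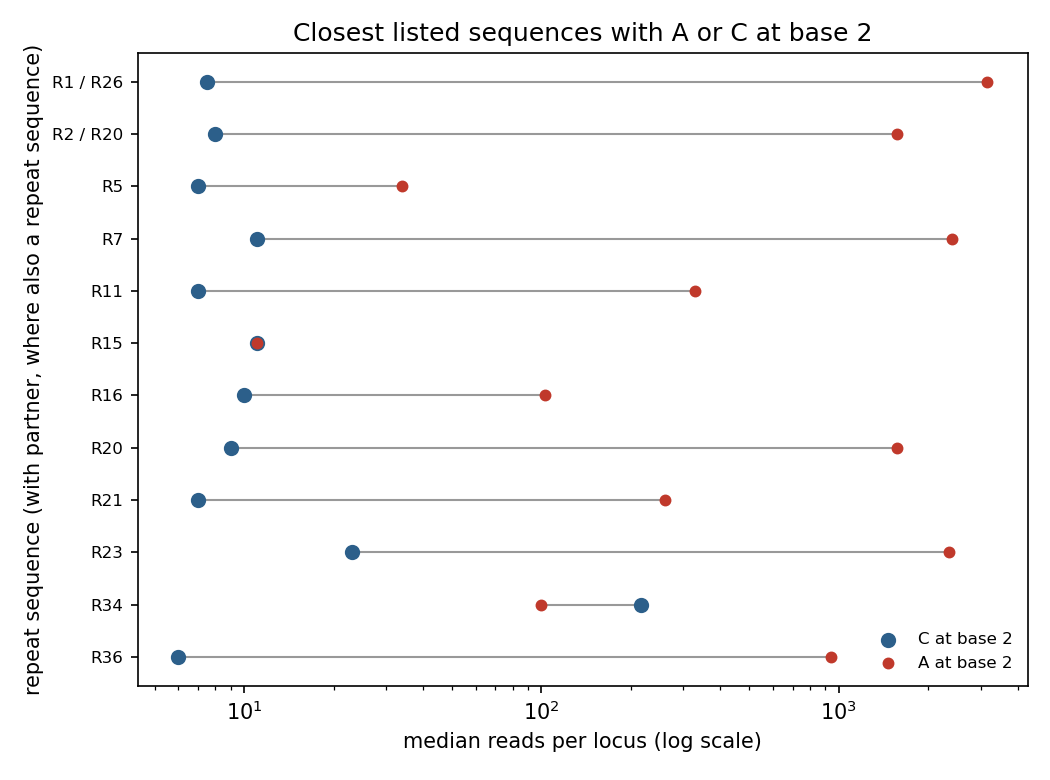
Median reads per locus (log scale) of members and of their closest listed counterpart with the other base at position 2; red, A at base 2, and blue, C at base 2. The red point lies to the right in all rows but R15, where both are at 11, and R34, where C is higher (217 against 100).

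The annotated transcripts showed what stood just before the starts at exonic loci, and which first 2 bases other copies carry. The search was added after the starts were seen. It used GENCODE M21 transcripts, and the motif was GTAC, which reads the same on both strands. At 20 loci of members that lie wholly inside an annotated exon on either strand, the listed sequence equals the transcript at every base. The exonic loci of R6 on scaffolds are not among the 20. All 20 begin with AC, and GT stands before it at 18, against 341 of the 459 other exonic clusters that begin with AC (74.3%). The exceptions are 1 locus of R5, preceded by GA, and an R32 locus in Gm49701, preceded by AT. R6 gives more of the 20 loci than any other member, with GT before each. Copies of a sequence are not independent, so the 18 of 20 is a description only. GTAC itself occurs within 0 of the 36 member sequences and within 27 of the other 3524 distinct sequences.

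Of the other listed clusters wholly in exons 18 begin with AA, also equal to the transcript, and GT stands before 4 of them. No AA locus of a member lay wholly in an exon, so AA members were compared with related copies instead. A copy here is a transcript that matches a member from base 3 to its last base, whatever its first 2 bases, with each gene and start counted once. For 11 of the 14 AA sequences there were 162 such copies. GTAC spans the start in 145 of them (89.5%), and 0 of the 162 begin with the listed AA. Related members such as R11 and R21 can match the same transcripts, so the 162 are not independent. R13 has GTAC in 27 of 28 copies, R3 in 27 of 30, R7 in 20 of 23, R26 in 18 of 20 and R33 in 17 of 17. R11 and R21 have it in 2 of 5 and 3 of 6. The 11 AC members with copies have GTAC in 49 of 52 (94.2%). Among the other AA sequences of the list, 414 of 592 copies have GTAC (69.9%) and 33 begin with AA. For these 11 sequences the listed loci thus differ in the first 2 bases from every annotated copy that shares the rest.

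The members were linked with each other in part. Words of 30 bases on either strand joined the 36 sequences into 29 groups, of which 25 hold 1 sequence. The 4 larger groups are R1, R2, R20 and R26, then R11, R16 and R21, then R7 and R15, then R23 and R34. R2 and R20 lie on the opposite strand to R1 and R26, and their places as projected on the transcript below overlap by 56 bases. At 2 places an R1 and an R2 locus overlap by those 56 bases, in the potassium channel gene Kcnt2 and in the ubiquitin ligase gene March1. No other pair of members overlaps or abuts at a listed locus. Against the rest of the list, 22 members share a 30-base word with sequences at fewer than 10 loci and 14 share none. R7 has the most such links, with 74 other sequences at 119 clusters. Within 5 substitutions of R7 there are 56 listed sequences.

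A much larger set appeared when the members were looked up in 141767 annotated transcripts. Words of 30 bases of 26 members occur in at least 1 transcript, and of 10 members in none. Members were joined where 3 or more genes hold both on the same strand. This left 17 sequences single, joined R5 with R8, and made 1 set of 17 members: R1 to R4, R7, R10, R11, R13, R15, R16, R20, R21, R23, R26, R33, R34 and R36. Within it, R1, R13, R23, R26 and R34 share at most 8 genes with any of the remaining members (R1 with R16). Between R1 and R13 there are 50 such genes, so the ties of these 5 sequences to the rest are thin. The set has 401 clusters (57.9% of the members) and 175882 reads (97.4%). The other 19 sequences have 291 clusters and 4625 reads, with medians per sequence between 7 and 41 reads.

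Of these 17, 16 match 1 transcript of 5690 bases, Gm47164 (chr10:103207748-103213437, minus strand), an unspliced model. Along it stand R3 at position 2145, R33 at 2605, R4 at 2802, R36 at 4160, R13 at 4246, R23 and R34 at 4878, R7 and R15 at 4964, R1 and R26 at 5066, R2 and R20 at 5095, and R11, R16 and R21 from 5497. R1, R13, R23, R26 and R34 match its own strand and the other 11 the opposite strand. By projection R36 ends at 4245, 1 base before R13 begins on the other strand. R23 likewise ends at 4963, 1 base before R7 begins. The longest reading frame of the transcript has 1281 codons from position 1357 to 5202, on its own strand, and 13 of the 16 projected places lie inside it. R11, R16 and R21 lie beyond its end.

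The same order stood in 2 further transcripts. Gm37158 on the Y chromosome, of 5704 bases, holds 15 members and a frame of 846 codons. The lincRNA Gm26905, of 6621 bases, holds 16 members in the reverse order and again a frame of 1281 codons, on its opposite strand. In mouse LINE-1 elements the second reading frame, for an endonuclease and reverse transcriptase, is a long one that ends shortly before the tail of the element. No repeat annotation was used here, so whether this set is LINE-1 was not tested.

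**Figure D4:**
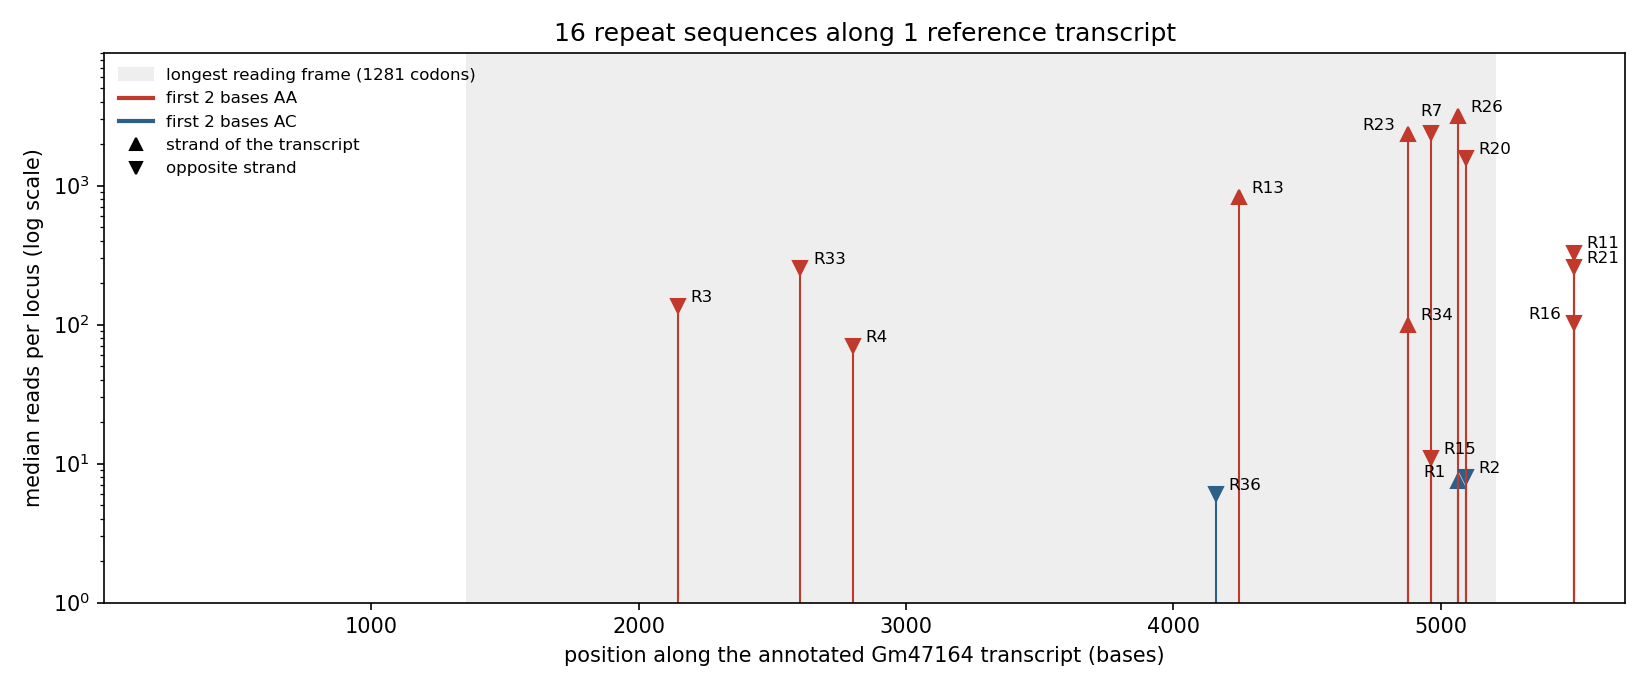
Median reads per locus (log scale) of 16 repeat sequences, placed where each matches the annotated Gm47164 transcript (x axis, bases); colour gives the first 2 bases, triangle direction the strand and grey the longest reading frame. The 4 sequences above 1000 reads (R7, R20, R23 and R26) stand between positions 4878 and 5179, next to R1, R2 and R15, which have at most 11. The reads are those of loci elsewhere, since no listed locus of a member lies wholly inside Gm47164.

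Levels differed between the projected places along the transcript. These are reads listed at loci elsewhere, since no listed locus of a member lies wholly inside Gm47164. R3, R33 and R4, between positions 2145 and 2886, had medians of 136, 254 and 70 reads. R13 at 4246 had 829.5 (823 to 840). R23 had 2347.5 (2333 to 2353), R7 had 2410, R26 had 3156 and R20 had 1574 (1561 to 1587), all between 4878 and 5179. R11, R21 and R16 past the frame had 329.5, 260 and 103. Sequences placed at 1 position also differed. R15 is placed where R7 is, differs from it by A73G alone and has 11 reads (9 to 12) at 16 loci. All 16 lie on the Y chromosome, although the cells are female by their labels, while R7 has 18 autosomal loci. R34 is placed where R23 is and has 100 reads against 2347.5.

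Outside that set, R5 and R8 were both rare in reads. R5 had 5 to 10 reads (median 7) at 29 loci, all on the minus strand. R8 had 5 to 11 reads (median 7) at 23 loci, of which 20 were on the plus strand.

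By spread over the genome the members fell into those on 1 chromosome and those on several. Loci on an unlocalized scaffold were counted with the chromosome it belongs to. On several chromosomes lie 25 sequences with 541 clusters and 177552 reads, and on 1 chromosome 11 sequences with 151 clusters and 2955 reads. R1 reached 20 chromosomes (19 autosomes and X), R2 19, R3 and R8 17, and R5 and R9 15. A single read count at all loci was found in 8 of the 11 on 1 chromosome and in 2 of the 25 on several, R24 and R35. R35 counts as several through 1 unplaced scaffold.

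**Figure D5:**
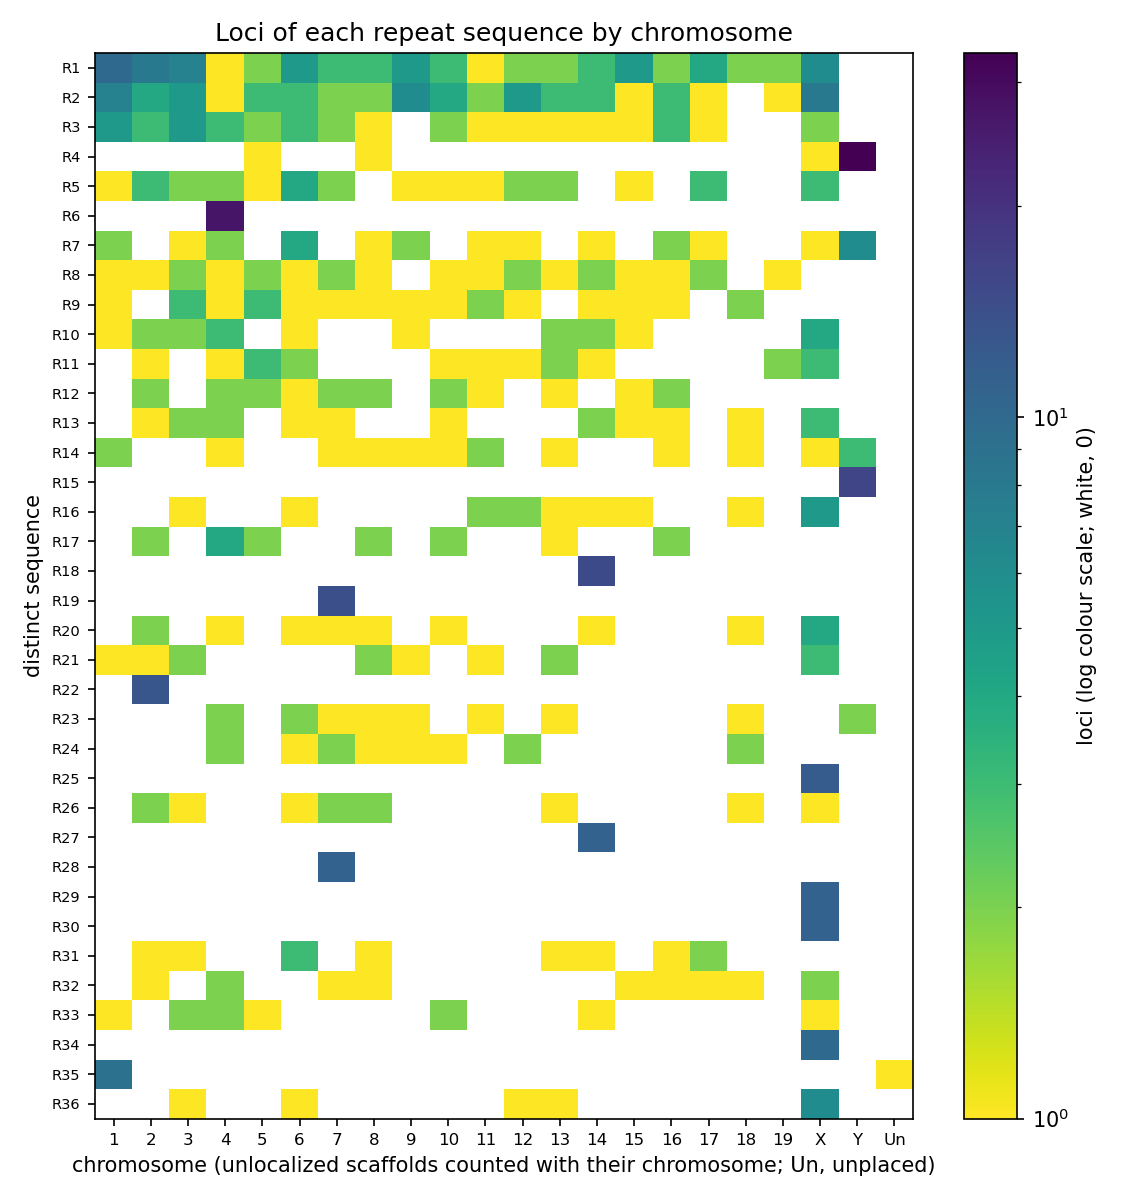
Loci of each of the 36 sequences (rows) on each chromosome (columns), colour on a log scale and white for 0. R1 fills 20 columns, and 11 rows have a single filled column, 4 of them on X (R25, R29, R30 and R34).

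Taken over clusters, 518 of 692 repeat clusters lay on autosomes (74.9%, exact interval 71.4 to 78.0), against 90.9% of the 4070 other clusters. On X lay 98 (14.2%, 11.6 to 16.98; others 6.44%), on Y 60 (8.67%; others 0.565%) and on scaffolds 16 (2.31%; others 0.418%). Intervals cover counting error only and take each locus as independent, which copies are not. R25, R29, R30 and R34 hold 44 of the 98 X loci. Without these 4 sequences the X share was 54 of 648 clusters (8.33%). R4 holds 33 of the 60 Y loci, R15 16, R7 6, R14 3 and R23 2, although the cells are female by their labels.

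Repeat clusters were mostly outside genes. At their midpoint 476 (68.8%, 65.2 to 72.2) were intergenic, against 45.8% of the others. Introns on the own strand held 99 (14.3%; others 21.1%), the antisense strand of a gene another 99 (14.3%; others 26.9%), and exons 18 (2.60%; others 6.17%). The plus strand held 378 (54.6%; others 50.4%). The set of 17 was intergenic at 76.6% of its clusters and the other 19 sequences at 58.1%. In protein-coding genes alone, leaving other gene types out, 79.6% of repeat clusters were outside genes.

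A repeat cluster fell in 192 genes, and in 181 of them it was the only one. Snhg14, the long host transcript of small nucleolar RNAs in the imprinted Prader-Willi and Angelman region, has 14, all of R19. Malrd1 has 3, from R2 (antisense), R12 and R17. Agbl4, a carboxypeptidase gene, has R13 in an intron with 838 reads and R9 antisense with 35. Adgrl3, an adhesion receptor gene, has R2 and R9, both antisense, with 9 and 34 reads. The lincRNA 4930578N18Rik has R12 and R17 with 23 and 25 reads, and Gm10635 has R2 at 2 places with 18 and 20. Gm2897, Gm3500 and Gm8281 each have R18 and R27 antisense, with 30, 33 and 29 reads in sum. Kcnt2 and March1 have R1 and R2, and Gm6213 has R26 antisense with 3162 reads. The high count of Gm6213 is that of R26 at every locus and is not particular to this gene.

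Exons held 18 repeat clusters in 18 genes, of which R6 gives 14, R5 2 and R8 2 (Gm49015 and AC153131.1). R6 lies on chromosome 4 between 41809410 and 42792165 at 18 loci and on scaffolds of chromosome 4 at 9, with 20 to 28 reads and a median of 25. Its exons include coding sequence of Gm21093, Gm12394, CR974586.6, CT868723.1 and AC087559.3, with 25 reads each. Others are in the pseudogenes Gm13301 (28 reads), Gm13302, Gm13303 and AC087559.1 (25 each) and in Gm10593 (27). At 22 of its 27 loci the next copy lies within 20000 bases on the same strand, most often (7 times) 2873 bases away. The 86 bases of R6 are the same in each, so its reads cannot be assigned to 1 of them.

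R19 forms the tightest array. Its 14 loci lie on chromosome 7 between 59552608 and 59597617, all on the minus strand and all in introns of Snhg14, with 8 reads each. The nearest annotated small nucleolar RNA gene is a different one for each of the 14 loci, at 421 or 420 bases. The nearest other copy is 1872 bases away at 7 of the loci and 1870 to 5618 bases away over all 14, and the longest gap between adjacent copies is 11236 bases. The equal counts of 8 do not show from how many of the loci RNA came.

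Further arrays lay in or near annotated coding genes. R22 has 13 loci with 7 reads each on chromosome 2 (175194630 to 177192773). It lies antisense in 5 coding genes, such as Gm14391 and Gm2026, and its other 8 loci are 242 or 243 bases from the nearest coding gene. R28 has 11 loci with 16 reads each on chromosome 7 (20105470 to 22980288), and at 8 of them the nearest coding gene, 2410 to 3461 bases away, is a Vmn1r gene for a vomeronasal receptor. R18 and R27 lie on chromosome 14, R18 between 3074406 and 7638805 at 15 loci with 10 reads each, 13 of them antisense in genes. R27 lies between 3053649 and 19581760 at 11 loci with 17 to 24 reads, 8 of them antisense.

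On X the arrays form 2 regions. R29 (11 loci, 14 reads each) and R30 (11 loci, 11 reads each) lie between 25004164 and 35371407, all intergenic. R25 (12 loci, 8 reads each) and R34 (10 loci, 100 reads each) lie between 54214306 and 55779088, all intergenic and all on the plus strand. At 9 of the 12 R25 loci an R34 locus follows on the same strand, each time 688 bases away. R34 is the member of the large transcript set that is listed on X alone, and its close relative R23, also beginning with AA, is listed at 10 autosomal and 2 Y loci. R4 and R15 are arrays of the Y chromosome. R4 has 33 of its 36 loci between 6133741 and 83239124, and R15 has 16 of 16 between 22565867 and 69070293, all on the minus strand.

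R12 and R17 were found as neighbours without any shared word. At 10 of its 18 loci R12 has an R17 locus within 20000 bases on the same strand, 9 of them exactly 2482 bases away, as in Malrd1 and 4930578N18Rik. R14 stood beside them at 4 of its 16 loci, always on the same strand: 228 bases before R17 at 3, and 2243 or 2254 bases after R12 at 2. R12 and R17 have like read counts, 17 to 24 (median 23) and 14 to 25 (median 24). R14 has 22 to 37 (median 30). R35 has 3 loci on chromosome 1, in introns of A530032D15Rik, C130026I21Rik and Sp140, and 7 on scaffolds, with 8 reads at all 10. At 6 of its loci the next copy is on the opposite strand, 13895 to 14245 bases away.

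The remaining members lie on 5 or more chromosomes each. R9 (21 loci on 15 chromosomes, 34 to 47 reads, median 41) is the highest AC sequence. R14 (16 loci on 12 chromosomes, 22 to 37, median 30), R24 (12 loci on 8 chromosomes, 11 reads each), R31 (11 loci on 8 chromosomes, 6 to 13, median 9) and R32 (11 loci on 9 chromosomes, 6 to 8, median 7) were joined with no other member through transcripts. R10 (19 loci on 10 chromosomes, 14 to 22, median 19) and R33 (10 loci on 7 chromosomes, 252 to 256, median 254) complete the AA sequences. R36 (10 loci, 5 to 7 reads) has 6 of its 10 loci on X. All 36 were 83 to 86 bases long, with 17.4% to 43.5% T and a mean of 30.2%, against 31.7% in the other distinct sequences.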

How the data were processed

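The 12 libraries were PAR-CLIP libraries in 3 groups of 4. The submitters' processing notes name bcl2fastq, TopHat2 2.1.0 and the build mm10. The authors deposited whole-number counts of reads for each cluster in 1 list for the whole series, with position, strand and sequence and 0 columns per library. How clusters were called, how reads with several matches were treated and which libraries were counted were points not given in the sources used here. Depth per library is therefore unknown. No groups were compared.

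Exact sequences were counted, and those at 10 or more loci kept. Sequences were linked by shared words of 30 bases on either strand. Clusters were assigned at their midpoint to GENCODE M21 on GRCm38, the assembly of mm10, own strand first; scaffold names were translated, and 2 clusters lay on sequences outside that annotation. Near-identical sequences had at most 5 substitutions and differed in length by at most 3 bases. The test was a two-sided Fisher's exact test on distinct sequences, and 95% intervals are exact binomial (Clopper-Pearson). Linking and testing were tested on simulated data. The work used Python 3.11.15, pandas 2.3.3, NumPy 2.4.6, SciPy 1.17.1 and Matplotlib 3.10.9.

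The members and lists were chosen with earlier results of these data known. Genes named were the 12 with the most repeat clusters and up to 10 with an exonic one; genes near arrays, the other exonic genes, and Gm26905, Gm37158 and Gm47164 were named after their values were seen. By rule 12 sequences were to be printed, 4 of which are not reported here; the rest were added later. Alternatives were another minimum of loci, equal weights, other words, other rules of annotation and 1 sequence per group.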

Additional observations from a re-analysis of the deposited data

How the results depend on the processing

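With a minimum of 5 loci there were 81 distinct sequences, and with 20 loci 9 sequences in 338 clusters. Counted once per sequence the reads were 12138, and once per linked group 10000, each at the locus with the most reads. The X share (14.2%) was 19.2% with each sequence weighted equally and 6.21% at 20 or more loci. The autosomal share (74.9%) was 71.0% with equal weights, 78.9% at 5 or more loci and 79.6% at 20 or more. The intergenic share was 79.6% with protein-coding genes only. The AC odds ratio stayed below 1 with 1 sequence per linked group (0.272, Fisher's exact test, p = 0.00738), over every cluster (which takes copies as independent) and at 5 or more loci. At 20 or more loci it was 0.363 (Fisher's exact test, p = 0.15). Without the set of shared transcripts it was 6.99 (Fisher's exact test, p = 0.0989), so its direction rests on that set. Members of that set stand in several linked groups, so taking 1 sequence per linked group does not make the observations independent. The ratio of AA to AC median reads (27.1) was 11.6 at 5 or more loci, 17.5 at 20 or more, 5.53 at 2 to 9 and 2.31 at 1 locus. These ratios and the fit without the set were chosen after seeing the data. The number of linked groups was 29 with words of 20 or 40 bases and 30 on the same strand only. Reads at low-count sequences, at 5 to 11 per locus, limit what can be said of differences between their copies. No paired analysis was possible because the list has no value per sample.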
